A study of Mus musculus with 15 samples.

Results

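Orphan and adhesion G protein-coupled receptors were followed across the dendritic cells (DCs) and macrophages (mϕ) of the mouse small intestine. The set holds every gene of the array annotation that is named Gpr followed by a number, the symbols given to receptors first found without a known ligand, or Adgr, the symbols of the adhesion family. The rule uses names only and no measured value, but it was chosen with earlier results of these data known. It gave 94 of the 19938 genes measured, 25 adhesion receptors and 69 Gpr-named receptors. Celsr1, Celsr2 and Celsr3 are adhesion receptors under other names. They are not in the set, and none of these 3 passed in any comparison.

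RNA from 5 sorted populations of small intestinal lamina propria was hybridised to 15 Affymetrix Mouse Gene 1.0 ST arrays, 3 per population. DCs, gated as lacking CD64, were split by CD103 and CD11b into the subsets CD103+CD11b+, CD103+CD11b-, CD103-CD11b+ and finally CD103-CD11b-, and CD64+ mϕ were the remaining population. All came from healthy wild-type (WT) mice at steady state with no treatment or deleted gene. The labels give no age or sex for these animals. Across the study, the methods describe young adult mice of both sexes and name C57BL/6 as the WT strain. The study calls the replicates biological but does not say how many mice went into each, so the p-values measure the spread between these sorted samples. CD103 is the αE integrin that binds E-cadherin, CD11b an integrin of myeloid cells, and CD64 a high-affinity Fc receptor used to separate mϕ from DCs. CD103+CD11b- DCs correspond to conventional type 1 DCs (cDC1), and the CD11b+ subsets to conventional type 2 DCs (cDC2).

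G protein-coupled receptors cross the membrane 7 times, and on binding a ligand they exchange GDP for GTP on a G protein inside the cell. Leukocytes use them to sense chemokines, lipids, metabolites and protons, and so to find their place in tissue. Adhesion receptors carry a long extracellular part that is cut from the membrane part yet stays attached to it, and a short stretch next to the cut acts as their own agonist. Many of the others are still called orphans, and several Gpr names were kept after a ligand was found.

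Each value is a log2 signal, on which a step of 1 is a doubling of the signal. A gene was called higher or lower where it passed limma at an adjusted p of 0.01 with a difference of more than 1 on the log2 scale. Lack of overlap between arrays was 1 of the grounds for giving array values, so it describes the values and adds no support to a call. Signals of different genes come from different probes, so levels of different genes were not compared with one another. In RNA from whole sorted populations, fewer cells with a transcript and less of it per cell cannot be told apart.

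The stretches just before the start sites are shown for 4 of the receptors that passed between DC subsets. Gpr33 and Gpr141b were high in CD103+CD11b- DCs, and Gpr141, which neighbours Gpr141b, was low there. The fourth, Gpr55, was high in CD103+CD11b+ DCs. Each stretch is the 250 bases before the start site, read 5′ to 3′ in the direction of the gene from RefSeq (GRCm38.p6). Capitals mark matches to the motifs searched. Gpr33 lies at chr12:52028064-52028313, Gpr141b at chr13:19732952-19733201, Gpr141 at chr13:19824258-19824507 and Gpr55 at chr1:85961056-85961305, all on the minus strand.
Gpr33: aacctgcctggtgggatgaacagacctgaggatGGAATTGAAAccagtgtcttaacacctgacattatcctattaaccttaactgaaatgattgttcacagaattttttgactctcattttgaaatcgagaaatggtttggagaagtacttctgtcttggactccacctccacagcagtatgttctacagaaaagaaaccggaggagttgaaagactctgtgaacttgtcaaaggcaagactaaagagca
Gpr141b: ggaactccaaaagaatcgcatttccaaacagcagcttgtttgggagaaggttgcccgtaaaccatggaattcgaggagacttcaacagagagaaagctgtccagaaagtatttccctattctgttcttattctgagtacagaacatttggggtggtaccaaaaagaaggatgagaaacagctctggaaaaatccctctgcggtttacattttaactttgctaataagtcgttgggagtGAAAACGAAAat
Gpr141: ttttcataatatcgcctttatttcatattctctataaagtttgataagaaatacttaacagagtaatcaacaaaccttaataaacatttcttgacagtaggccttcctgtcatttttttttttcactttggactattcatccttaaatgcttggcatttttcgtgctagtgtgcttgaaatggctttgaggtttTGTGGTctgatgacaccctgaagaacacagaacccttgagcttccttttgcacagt
Gpr55: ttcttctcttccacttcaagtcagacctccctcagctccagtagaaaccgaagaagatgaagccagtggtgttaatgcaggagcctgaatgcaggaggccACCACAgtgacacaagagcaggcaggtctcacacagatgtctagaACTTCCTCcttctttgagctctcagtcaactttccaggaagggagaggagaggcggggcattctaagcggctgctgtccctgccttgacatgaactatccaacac
Both strands were searched for 5 motifs of myeloid factors, some of which can overlap one another. These were a PU.1-IRF composite (GGAA, any 2 bases, then GAAA), an interferon response pattern (GAAA, any 2 bases, then GAAA), a PU.1 site (GAGGAAGT), an AP-1 site (TGANTCA) and a RUNX site (TGTGGT). Gpr33 held the PU.1-IRF composite from 217 to 208 bases before its start. Gpr141b held the interferon response pattern from 12 to 3 bases before its start. Gpr141 held a RUNX site from 56 to 51 bases before. Gpr55 held a PU.1 site from 105 to 98 bases and a RUNX site from 150 to 145 bases before, both on the other strand. The windows of Gpr183, Gpr65, Gpr4, Adgre4 and Gpr157, which also passed between DC subsets, held no match. Of all 32851 promoter windows, 2.3% held the composite, 2.98% the interferon response pattern, 2.44% the PU.1 site, 6.75% the AP-1 site and 14.0% the RUNX site. Promoter entries were there for 71 of the 94 receptors, and 1 of these held the composite, 6 the interferon response pattern, 4 the PU.1 site, 6 the AP-1 site and 17 the RUNX site. A receptor with several windows was counted if any of them held a match, while the percentages are shares of single windows. The counts and the percentages are therefore not like for like. These matches describe letters only, since no binding was measured.

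The arrays were alike in overall signal, with a median over genes between 5.00 and 5.14 on every array, and replicate arrays correlated at 0.978 to 0.995 across genes. The sort genes followed the labels. Fcgr1, which encodes CD64, read 8.69 to 9.08 in mϕ and 3.69 to 5.02 in the DC subsets. Itgae (CD103) read 10.24 to 10.96 in the CD103+ subsets and 7.54 to 8.96 in the CD103- subsets, and Itgam (CD11b) read 9.44 to 9.65 in the CD11b+ subsets, 4.76 to 5.05 in CD103+CD11b- DCs and 6.40 to 7.02 in CD103-CD11b- DCs. Averaged over 10 genes of pancreatic acinar cells, the log2 signal varied within each population, from 4.87 to 8.78 in CD103+CD11b- DCs for example, and no gene of that list passed between populations.

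A population mean above 6 was reached by 30 of the 94 receptors. The table carries no detection call and probes differ in brightness, so 6 serves only to sort the members and says nothing of which are expressed. The 64 that never reached it had a median range of 0.19 between their highest and lowest population means. The 28 measured receptors known mainly from the nervous system, the 3 constitutive Gs-coupled receptors (Gpr3, Gpr6 and Gpr12) and the 10 intracellular or non-classical members had none that passed in any comparison.

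Levels differed between the 5 populations for 20 receptors (F test with the same thresholds, the log2 threshold applied to the range of population means), 21.3% of the set, where 10.7% of all genes did so. The median range of population means was the same, 0.29, for the set and for all genes. Of these 20, 5 were adhesion receptors (Adgra2, Adgre1, Adgre4, Adgrl2 and Adgrl3). Their highest mean lay in mϕ for 8, in the CD103+CD11b+ subset for 5, in CD103+CD11b- DCs for 5 and in each CD103- DC subset for 1. Gpr82 was the 1 of these that stayed below 6 everywhere, with a highest mean of 5.61 in CD103+CD11b+ DCs. It passed the F test alone, and did not pass without CD103+CD11b+ replicate 1 or replicate 3 (range of means 1.36 and 1.11). The other 74 passed nothing.

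**Figure D1:**
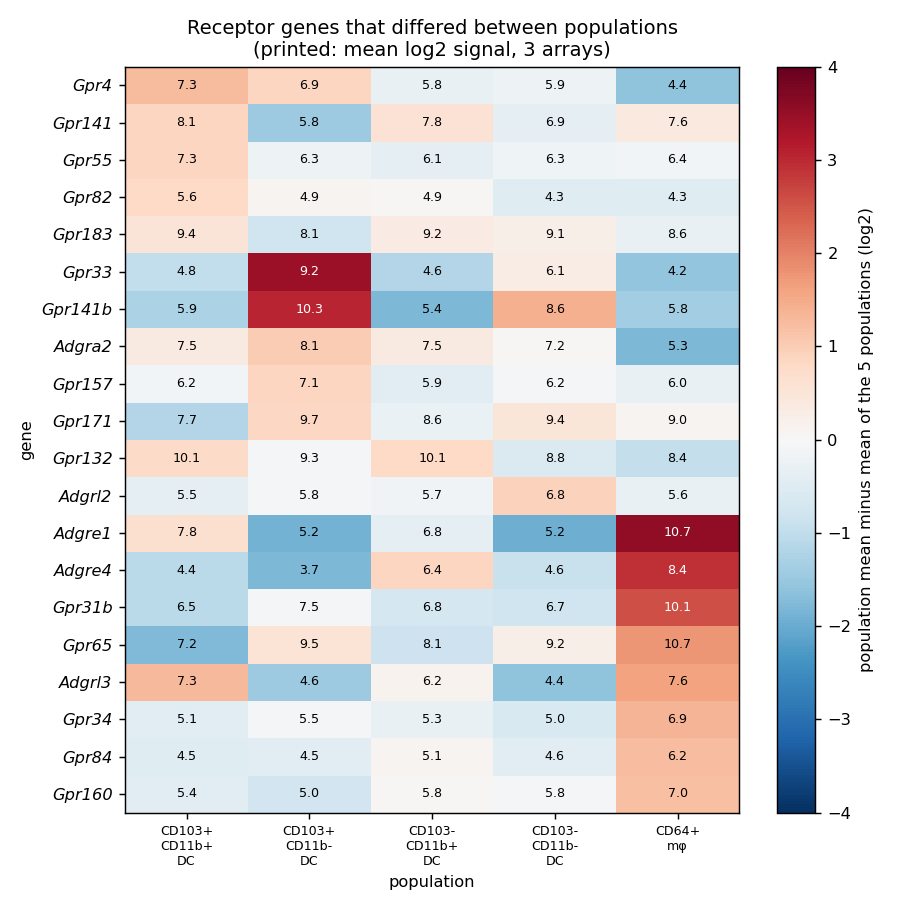
The 20 receptor genes (rows) that differed between the 5 populations (columns). Printed numbers are mean log2 signals of 3 arrays and colours give the mean minus the gene's average over the 5 populations, in log2 units. Gpr33 and Gpr141b stand out in CD103+CD11b- DCs (9.16 and 10.27), and Adgre1, Adgre4, Gpr31b and Gpr65 in CD64+ mϕ (10.68, 8.44, 10.11 and 10.71).

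Which receptors separate the CD11b+ DC subsets from the cDC1 population was asked first. Between CD103+CD11b+ and CD103+CD11b- DCs, 5 receptors were higher in the CD11b+ subset (5.32% of the set, where 1.95% of all genes were) and 5 were lower (5.32%, where 1.32% of all genes were). Between CD103-CD11b+ and CD103+CD11b- DCs, 5 were higher (5.32%, with 2.02% of all genes) and 6 lower (6.38%, with 1.3% of all genes). The CD103+CD11b- arrays serve both comparisons, so their values stand side by side and were not taken as separate evidence. The median difference over the set was 0.05 and 0.09, against 0.03 and 0.04 over all genes. The study already lists several of these receptors. Gpr33 and Gpr157 are on its list for CD103+CD11b- DCs, and Gpr141 and Gpr183 on that shared by the CD11b+ subsets. The shared list also holds Adgre1 and Adgrl3 under the older symbols Emr1 and Lphn3. Adgre4, as Emr4, is on its list for CD103-CD11b+ DCs.

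The leukocyte orphans, receptors without an agreed ligand that resemble chemoattractant receptors or are found mainly on blood cells, held most of those that were lower. Of 10 measured, 3 were lower in CD103+CD11b+ DCs (Gpr33, Gpr141b, Gpr171) and 4 in CD103-CD11b+ DCs (the same 3 and Gpr157), while Gpr141 was higher in both. Gpr33 is related to the formyl peptide and chemokine-like receptors. It read 8.99, 9.12 and 9.38 on the CD103+CD11b- arrays, 4.26, 4.73 and 5.30 in the CD103+CD11b+ subset and 4.36, 4.63 and 4.73 in CD103-CD11b+ DCs. The groups were far apart, with no CD11b+ array within 3 log2 units of a CD103+CD11b- array. The differences were -4.40 ± 0.22 (SE, adjusted p = 2.1e-07) and -4.59 ± 0.22 (adjusted p = 1.6e-07).

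Gpr141b and Gpr141 are neighbouring genes in the RefSeq gene order of GRCm38.p6, and they moved in opposite directions. Gpr141b read 10.02, 10.34 and 10.46 in CD103+CD11b- DCs. It read 5.89, 5.79 and 6.14 in the CD103+CD11b+ subset and 5.43, 5.12 and 5.69 in CD103-CD11b+ DCs. This receptor was thus lower in both CD11b+ subsets on every array, with differences of -4.33 ± 0.16 (adjusted p = 3.1e-08) and -4.86 ± 0.16 (adjusted p = 1.4e-08). Gpr141 read 5.53, 6.19 and 5.64 in the CD103+CD11b- subset, 8.08, 8.36 and 7.92 in the CD103+CD11b+ subset and 7.86, 7.69 and 7.97 in CD103-CD11b+ DCs. Here every CD11b+ array was the higher, by 2.33 ± 0.17 (adjusted p = 3.5e-06) and 2.05 ± 0.17 (adjusted p = 9.0e-06). The genes are close relatives and probe sequences were not used here, so binding of one transcript to the other's probes was not tested.

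Gpr171, for which a neuropeptide ligand has been proposed, read 9.92, 9.73 and 9.54 in the CD103+CD11b- subset, 7.54, 8.08 and 7.60 in the CD103+CD11b+ subset and 8.70, 8.74 and 8.49 in CD103-CD11b+ DCs. Its order was the same on all 9 arrays, highest in cDC1 and lowest in CD103+CD11b+ DCs, without overlap. The differences were -1.99 ± 0.15 (adjusted p = 4.3e-06) and -1.09 ± 0.15 (adjusted p = 4.2e-04). The second was not called without CD103+CD11b- replicate 1, where it was -0.995. Gpr157, an orphan receptor, read 7.29, 6.75 and 7.34 in the CD103+CD11b- subset, 6.28, 6.01 and 6.23 in the CD103+CD11b+ subset and 5.94, 5.72 and 5.90 in CD103-CD11b+ DCs. It was lower in CD103-CD11b+ DCs, with a difference of -1.27 ± 0.15 (adjusted p = 1.4e-04), while the difference of -0.95 in CD103+CD11b+ DCs (adjusted p = 0.00112) fell short of the log2 threshold.

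**Figure D2:**
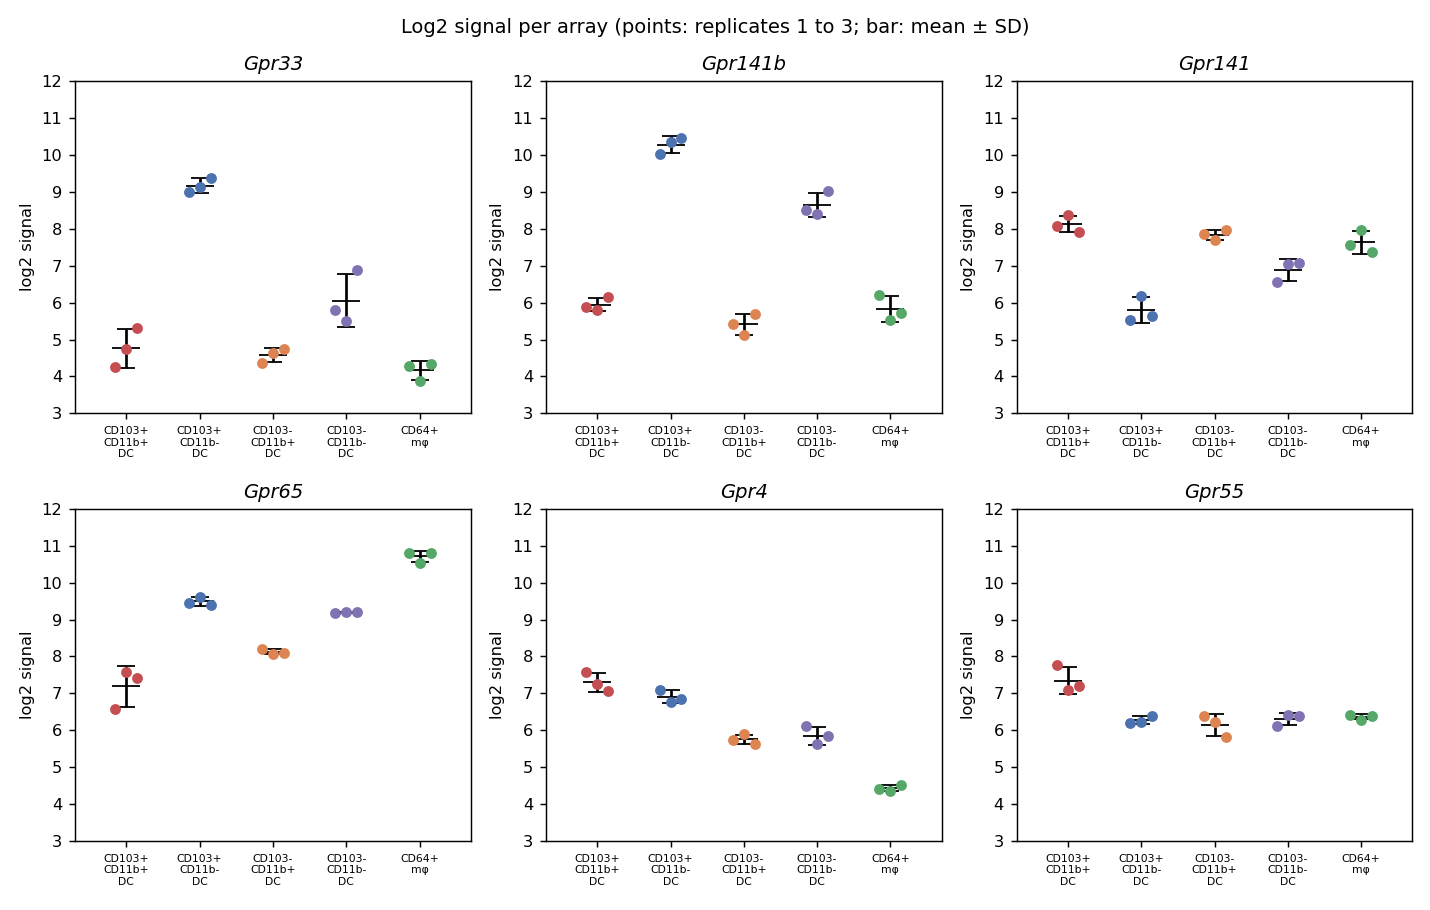
Log2 signal (vertical axis) of 6 receptors on each of the 15 arrays by population (horizontal axis), with points for replicates 1 to 3 and bars for the mean ± SD. Gpr33 and Gpr141b were high in CD103+CD11b- DCs and Gpr141 was low there, Gpr65 ran from 6.57 in a CD103+CD11b+ sample to 10.81 in a mϕ sample, Gpr4 fell to 4.36 in mϕ, and Gpr55 was above 7 only in CD103+CD11b+ DCs.

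Among the 12 receptors with a lipid or metabolite ligand, Gpr183 and Gpr55 rose in the CD103+CD11b+ subset over CD103+CD11b- DCs, and Gpr31b fell. Gpr183 (EBI2) guides B cells and DCs along gradients of the oxysterol 7α,25-dihydroxycholesterol. It read 9.55, 9.22 and 9.41 in the CD103+CD11b+ subset, 9.44, 9.05 and 9.06 in the CD103-CD11b+ subset, and 8.16, 7.97 and 8.09 in CD103+CD11b- DCs. All 6 CD11b+ arrays lay above the cDC1 arrays, by 1.31 ± 0.12 (adjusted p = 2.4e-05) and 1.11 ± 0.12 (adjusted p = 9.3e-05). The second difference was 0.98, and not called, without CD103-CD11b+ replicate 1.

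Gpr55, a receptor for lysophosphatidylinositol, set CD103+CD11b+ DCs apart from both other subsets. It read 7.76, 7.08 and 7.19 there, 6.21, 6.22 and 6.39 in the CD103+CD11b- subset and 6.39, 6.22 and 5.81 in CD103-CD11b+ DCs. Every CD103+CD11b+ array was above every array of the other 2 subsets. The difference from CD103+CD11b- DCs was 1.07 ± 0.18 (adjusted p = 0.0022), and it was not called without CD103+CD11b+ replicate 1 (0.86) or CD103+CD11b- replicate 2 (1.04). Gpr31b, the mouse form of a receptor that binds 12-HETE and bacterial metabolites, read 6.30, 6.28 and 6.78 in the CD103+CD11b+ subset and 7.40, 7.59 and 7.44 in CD103+CD11b- DCs. Its difference of -1.02 ± 0.15 (adjusted p = 6.3e-04) sat at the log2 threshold and was not called without CD103+CD11b+ replicate 1 (-0.95), CD103+CD11b+ replicate 2 (-0.94) or CD103+CD11b- replicate 2 (-0.97), nor after cyclic loess (-0.96). Array weights ended both calls (0.99 for Gpr55 and -0.98 for Gpr31b), and Gpr31b (-0.88) was not called either when each population lost its array with the most acinar transcripts.

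The proton-sensing receptors Gpr4, Gpr65 and Gpr132 respond to a fall in pH outside the cell, or are classed with those that do. Gpr65 (TDAG8), which raises cyclic AMP in acid medium, read 9.46, 9.62 and 9.39 in the CD103+CD11b- subset, 6.57, 7.57 and 7.42 in the CD103+CD11b+ subset and 8.21, 8.07 and 8.10 in CD103-CD11b+ DCs. Both CD11b+ subsets lay below the cDC1 arrays, with differences of -2.30 ± 0.21 (adjusted p = 1.9e-05) and -1.37 ± 0.21 (adjusted p = 9.8e-04). Gpr4, which signals through Gs, behaved differently: it read 7.58, 7.25 and 7.07 in the CD103+CD11b+ subset and 7.10, 6.76 and 6.86 in CD103+CD11b- DCs, which did not pass (0.39, adjusted p = 0.0902), and 5.75, 5.89 and 5.63 in CD103-CD11b+ DCs. The last subset was lower than CD103+CD11b- DCs, with a difference of -1.16 ± 0.14 (adjusted p = 1.5e-04). Gpr132, a receptor for oxidised fatty acids, was near 10 in both CD11b+ subsets and 9.28 ± 0.04 (SD) in CD103+CD11b- DCs. The first of these subsets, CD103+CD11b+ DCs, exceeded it by 0.79 (adjusted p = 0.00129) was short of the log2 threshold.

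Adhesion receptors were higher, where they passed, in the CD11b+ subsets. Adgre1 encodes the classical surface antigen by which mouse mϕ are stained. It read 8.09, 7.73 and 7.50 in the CD103+CD11b+ subset, 7.25, 6.23 and 6.81 in the CD103-CD11b+ subset and 5.24, 5.27 and 5.21 in CD103+CD11b- DCs. Every CD11b+ array exceeded every cDC1 array, by 2.53 ± 0.22 (adjusted p = 1.4e-05) and 1.53 ± 0.22 (adjusted p = 6.4e-04).

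Adgrl3 encodes latrophilin-3, known from synapses, where it binds teneurins and FLRT proteins. It read 7.60, 7.33 and 6.99 in the CD103+CD11b+ subset, 6.38, 6.07 and 6.07 in the CD103-CD11b+ subset and 4.46, 4.55 and 4.71 in CD103+CD11b- DCs. The 3 subsets did not overlap, and the differences from CD103+CD11b- DCs were 2.73 ± 0.15 (adjusted p = 4.3e-07) and 1.60 ± 0.15 (adjusted p = 2.4e-05). Adgre4 (FIRE), a myeloid relative of Adgre1, read 6.68, 6.05 and 6.47 in the CD103-CD11b+ subset and 3.83, 3.60 and 3.73 in CD103+CD11b- DCs, a difference of 2.68 ± 0.15 (adjusted p = 4.5e-07). In CD103+CD11b+ DCs it read 4.36, 4.34 and 4.64, a difference of 0.73 from CD103+CD11b- DCs that did not reach the log2 threshold.

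Markers of mϕ moved with the CD103-CD11b+ arrays. Of 12 mϕ markers, among them Adgre1 itself, 8 were higher in CD103-CD11b+ than in CD103+CD11b- DCs, and their mean level per array was 7.09 to 7.53 against 5.28 to 5.41, with 10.56 to 10.67 in mϕ. C1qa read 8.66 to 9.01 in CD103-CD11b+ DCs and 5.18 to 5.92 in CD103+CD11b- DCs, while Mertk stayed at 4.10 to 4.40 against 3.86 to 4.04. B and plasma cell genes moved in the same comparison, with 5 of 10 higher in CD103-CD11b+ DCs (among them Cd79a by 1.55 and Mzb1 by 1.93) and a mean per array of 6.98 to 7.65 against 6.28 to 6.36. The study lists C1qa and Mzb1 among its genes unique to CD103-CD11b+ DCs. Epithelial genes had 1 of 15 lower and T and NK cell genes 1 of 10 higher. In CD103+CD11b+ DCs, against the same arrays, 3 of 12 mϕ genes, 2 of 15 epithelial genes and 1 of 10 T and NK cell genes were higher, and no B or plasma cell gene passed. The 2 epithelial genes were Cdh1 (mean 9.0 against 6.82) and Epcam (8.26 against 7.16). Both are on the study's list of genes unique to CD103+CD11b+ DCs. The T and NK cell gene was Il7r (5.38 against 4.26), which the study lists as shared by the CD11b+ subsets. The part of mϕ and other cells in the values of Gpr183, Adgre1, Adgre4 and the other receptors of both comparisons was not tested. When each population lost its array with the most acinar transcripts, leaving 2 arrays a subset, Adgre1 (1.52) and Gpr65 (-1.29) were no longer called between CD103-CD11b+ DCs and the cDC1 population. The cDC1 markers also marked the contrast, with 7 of 11 lower in CD103+CD11b+ DCs and 9 of 11 lower in CD103-CD11b+ DCs.

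**Figure D3:**
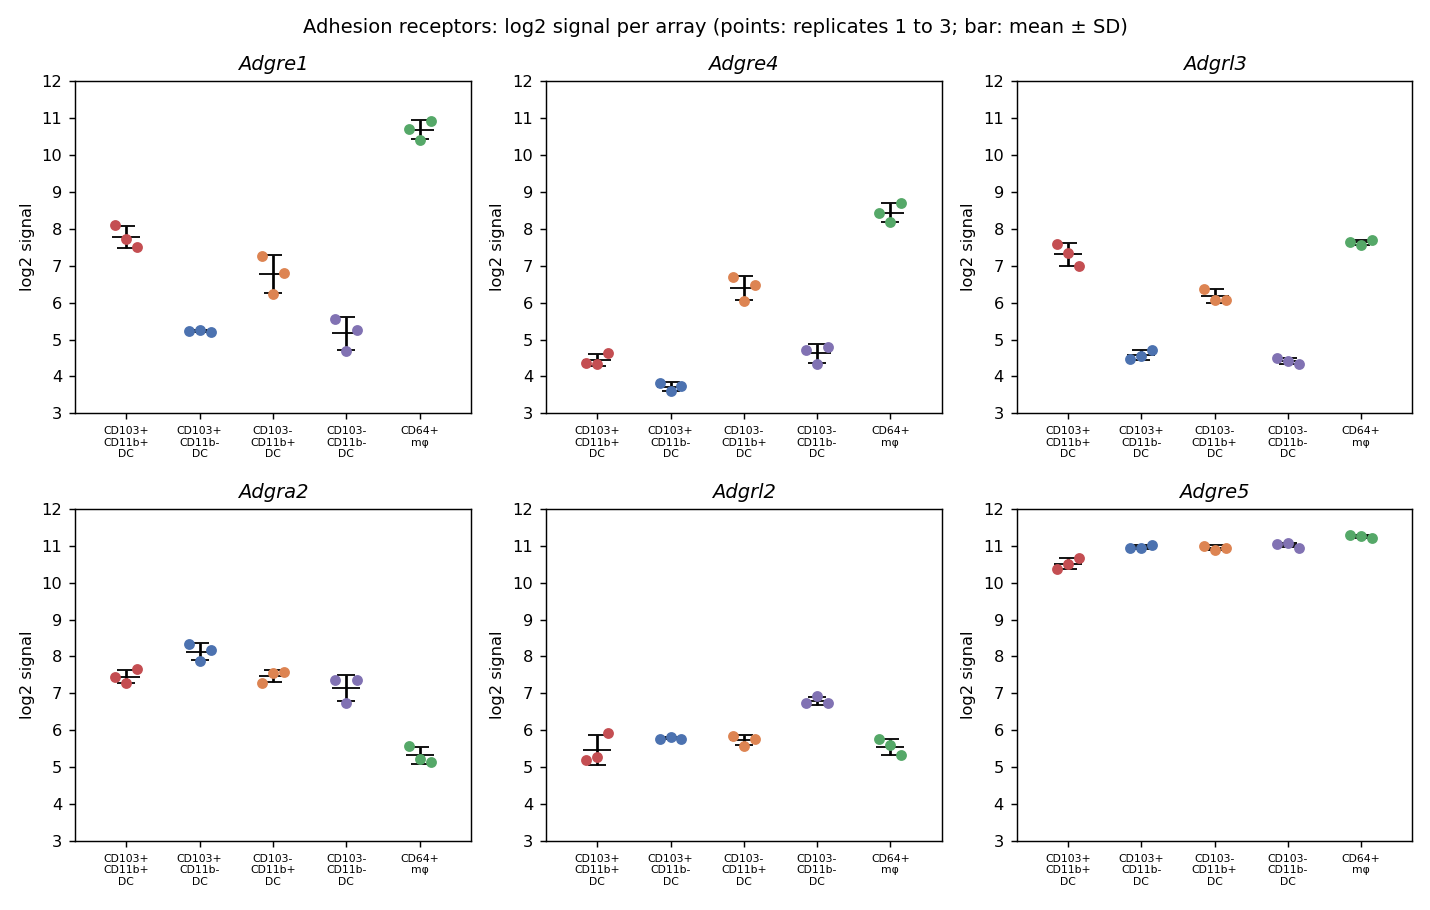
Log2 signal (vertical axis) of 6 adhesion receptors on each of the 15 arrays by population (horizontal axis), with points for replicates 1 to 3 and bars for the mean ± SD. Adgre1 and Adgre4 were highest in mϕ, Adgrl3 was as high in CD103+CD11b+ DCs as in mϕ on some arrays, Adgra2 was lowest in mϕ, Adgrl2 was highest in CD103-CD11b- DCs, and the means of Adgre5 lay between 10.51 and 11.25 in the 5 populations.

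The CD11b+ subsets were next set against each other, the pair the study asks about as possible stages of a shared lineage. CD103+CD11b+ DCs were higher in 3 receptors, Adgrl3, Gpr4 and Gpr55 (3.19% of the set, where 0.231% of all genes were higher), and lower in 1, Adgre4 (1.06%, where 0.306% of all genes were lower). The values on the arrays are those given above, without overlap between the subsets for these 4, which is description only. Gpr4 was higher by 1.55 ± 0.14 (adjusted p = 2.1e-04), Gpr55 by 1.20 ± 0.18 (adjusted p = 0.00527) and Adgrl3 by 1.13 ± 0.15 (adjusted p = 0.00243), and Adgre4 was lower, at -1.95 ± 0.15 (adjusted p = 1.1e-04). Adgre1 (1.005, adjusted p = 0.0383), Gpr65 (-0.94, adjusted p = 0.04) and Gpr171 (-0.90, adjusted p = 0.00758) did not pass.

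The calls for Gpr55 and Adgrl3 rested on single arrays. Gpr55 was not called without CD103+CD11b+ replicate 1 (0.99) or 3 (1.28), CD103+CD11b- replicate 2 or 3 (1.20 in both cases), or CD103-CD11b+ replicate 2 (1.24) or 3 (1.04). Adgrl3 was not called without CD103+CD11b+ replicate 1 (0.98) or 2 (1.12) or CD103-CD11b+ replicate 2 or 3 (1.08 in both cases). With the array that held the most acinar transcripts taken out of each population, leaving 2 arrays a subset, none of the 4 receptors was called, although the differences stayed at 1.51 for Gpr4, 1.17 for Gpr55, 1.07 for Adgrl3 and -1.86 for Adgre4. Epithelial markers moved in the same direction as Gpr4, Gpr55 and Adgrl3: the mean level of 15 of them per array was 7.22 to 7.75 in CD103+CD11b+ DCs and 6.31 to 6.65 in CD103-CD11b+ DCs, and 1 of the 15 passed. That gene was Cdh1 (mean 9.0 against 7.63), which the study lists as unique to CD103+CD11b+ DCs, as it does Epcam of the same 15. Of 12 mϕ markers, 6 were lower in CD103+CD11b+ DCs, as Adgre4 was, and 0 were higher. Adgre1, which is 1 of the 12, had the higher mean there (7.77 against 6.77) without passing. The part of epithelial cells or mϕ in these 4 receptors was not tested.

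**Figure D4:**
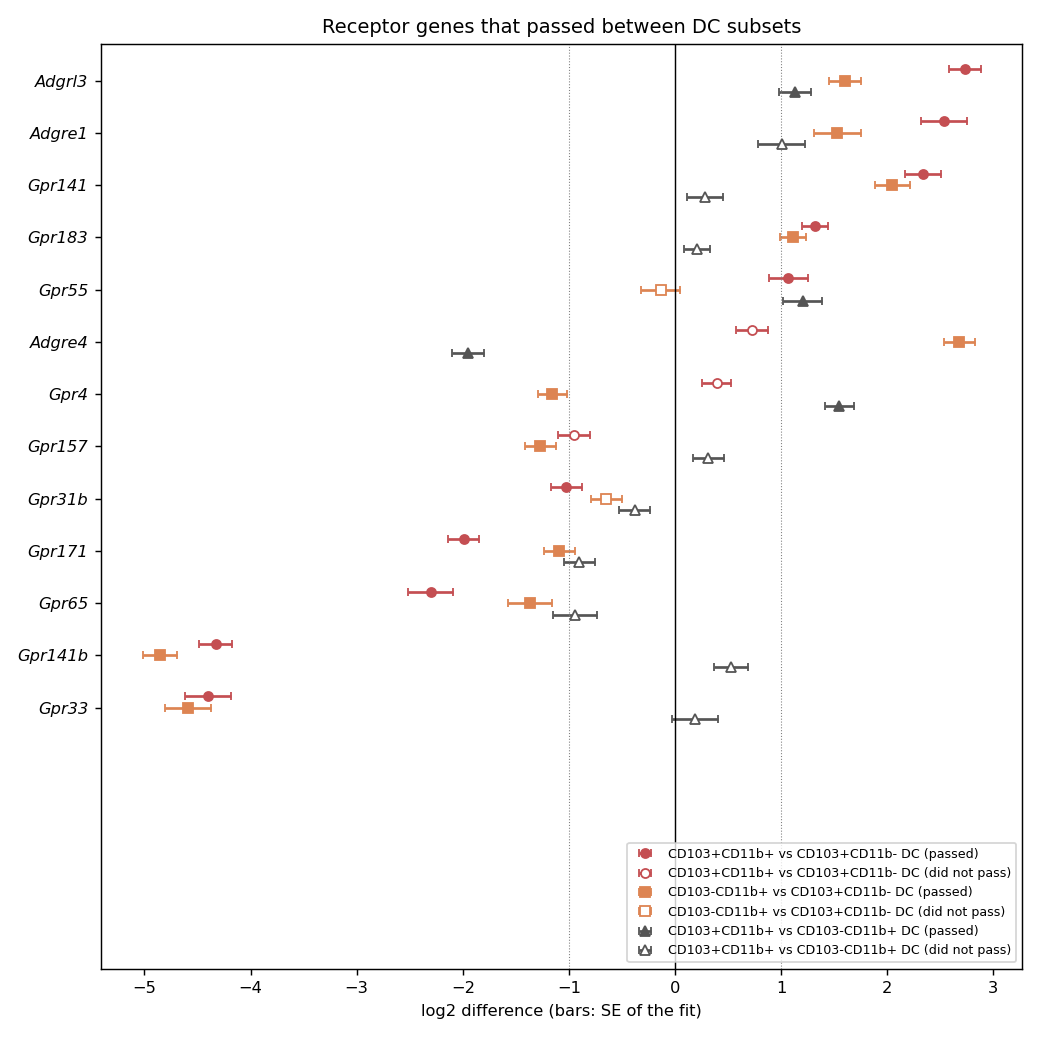
Log2 differences (horizontal axis) with the SE of the fit for the 13 receptor genes (vertical axis) that passed in at least 1 of 3 comparisons between DC subsets. Filled symbols passed and open symbols did not. Gpr33 and Gpr141b differ from CD103+CD11b- DCs by more than 4 log2 units in both CD11b+ subsets, and Adgre4, Gpr4, Gpr55 and Adgrl3 are those that passed between the CD11b+ subsets.

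CD103-CD11b- DCs were compared with the mean of the other 3 DC subsets. The study describes this gate as small and mixed. Here 2 receptors were higher, Adgrl2 and Gpr141b (2.13% of the set, with 0.717% of all genes), and 3 were lower, Adgre1, Adgrl3 and Gpr132 (3.19%, with 0.301% of all genes). Adgrl2 (latrophilin-2) read 6.73, 6.92 and 6.74 in this subset and between 5.19 and 5.94 on the other 9 DC arrays. No array of another subset reached it, and the difference was 1.13 ± 0.13 (adjusted p = 1.0e-04). The gene has 8 probesets and the brightest was used. The others correlated with it at 0.29 to 0.91 over the 15 arrays. The call was kept with the mean of the probesets.

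Gpr141b read 8.51, 8.40 and 9.01 in CD103-CD11b- DCs, between its values in CD103+CD11b- DCs and those in the CD11b+ subsets. It was higher than the mean of the 3 other subsets by 1.43 (adjusted p = 9.0e-05). Gpr33 read 5.79, 5.50 and 6.87 there, also between the other subsets. Adgrl3 read 4.50, 4.43 and 4.35, as low as in CD103+CD11b- DCs, and was lower than the mean of the other 3 subsets, at -1.59 ± 0.11 (adjusted p = 7.3e-07). Adgre1 read 5.56, 4.68 and 5.26 and was lower in the same way, at -1.42 (adjusted p = 4.7e-04). Gpr132 read 8.46, 9.03 and 8.76, below all other DC arrays, with a difference of -1.07 (adjusted p = 0.00343). Without CD103-CD11b- replicate 1 or 3 it was -0.92 and -1.07, neither called.

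Markers of other cells were higher in CD103-CD11b- DCs beside these receptors. Of 10 B and plasma cell genes 6 were higher, with a mean of 8.07 to 8.75 per array against 6.28 to 7.65 on the other DC arrays, and of 7 genes of plasmacytoid DCs 4 were higher, with a mean of 7.52 to 7.80 against 6.17 to 6.88. cDC1 genes were higher for 4 of 11. Cd79a, part of the B cell receptor, read 7.66 to 8.20 and Siglech, a plasmacytoid DC marker, 5.84 to 6.79. Other genes of the B and plasma cell list were not raised. Ms4a1 had a mean of 3.74, against 3.71 to 4.09 in the other DC subsets, and Pax5 4.38, against 4.41 to 4.46. Their part in the values of Adgrl2 and Gpr141b was not tested. When each population lost its array with the most acinar transcripts, Adgrl2 (1.05) and Adgre1 (-1.18) were no longer called.

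Macrophages differed from DCs in more of these receptors. In CD64+ mϕ 8 were higher than the mean of the 4 DC subsets (8.51% of the set, where 3.38% of all genes were) and 5 were lower (5.32%, where 2.19% of all genes were). The median difference was 0.01 over the set and -0.004 over all genes. Adgre1 read 10.71, 10.41 and 10.91 in mϕ, with no DC array above 8.09, a difference of 4.44 ± 0.20 (adjusted p = 2.3e-10). Adgre4 read 8.42, 8.18 and 8.71, above every DC array, and was higher by 3.64 ± 0.14 (adjusted p = 4.5e-11). Adgrl3 read 7.64, 7.55 and 7.69, which overlapped CD103+CD11b+ DCs but no other DC subset, and was higher than the DC mean by 2.01 ± 0.11 (adjusted p = 1.6e-09). Adgre1 is 1 of the markers by which mϕ are known, so its level checks the label.

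Among the lipid and metabolite receptors, Gpr31b, Gpr34 and Gpr84 were higher in mϕ and Gpr132 was lower. Gpr31b read 10.21, 9.95 and 10.17 in mϕ and at most 7.59 on a DC array, a difference of 3.24 ± 0.12 (adjusted p = 4.1e-11). Its other probeset gave nearly the same values. Gpr34, a receptor for lysophosphatidylserine known from microglia, read 7.37, 6.37 and 7.03 in mϕ against 4.56 to 5.60 on DC arrays, and was higher by 1.71 ± 0.18 (adjusted p = 2.4e-06). Gpr84, a receptor for medium-chain fatty acids that is induced in activated mϕ, read 6.32, 5.92 and 6.47 against 4.28 to 5.21, and was higher by 1.55 ± 0.12 (adjusted p = 1.6e-07). Both stood clear of all 12 DC arrays. Gpr82, the X-linked neighbour of Gpr34 in the RefSeq order, did not follow it, with a mean of 4.31 in mϕ and 5.61 in CD103+CD11b+ DCs.

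All 3 proton-sensing receptors passed between mϕ and DCs, in different directions. Gpr65 read 10.81, 10.54 and 10.79 in mϕ, above every DC array, with a difference of 2.21 ± 0.15 (adjusted p = 2.2e-08). Gpr4 read 4.42, 4.36 and 4.53 in mϕ, below every DC array, with a difference of -2.02 ± 0.11 (adjusted p = 3.2e-09). Gpr132 read 8.25, 9.05 and 7.80, which overlapped CD103-CD11b- DCs, with a difference of -1.18 (adjusted p = 2.1e-04). Without mϕ replicate 3 it was -0.90 and not called.

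Adgra2 was the 1 adhesion receptor that was lower in mϕ. It is best known as GPR124, a partner of Wnt7 signalling in brain blood vessels. It read 5.57, 5.23 and 5.15 in mϕ and 6.74 to 8.34 on DC arrays, a difference of -2.23 ± 0.14 (adjusted p = 9.8e-09), with no overlap. Gpr141b (6.21, 5.52 and 5.72 in mϕ) and Gpr33 (4.28, 3.87 and 4.33) were lower than the DC mean, with differences of -1.75 (adjusted p = 7.3e-07) and -1.98 (adjusted p = 1.4e-05), and the mϕ arrays overlapped both CD11b+ DC subsets for Gpr141b and the CD103+CD11b+ subset alone for Gpr33. Gpr160, an orphan receptor, read 7.37, 7.20 and 6.40 in mϕ and 4.99 to 6.18 on DC arrays, and was higher by 1.49 ± 0.18 (adjusted p = 1.5e-05).

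Markers of other cells also moved between mϕ and the DC mean. Of 15 epithelial genes 2 were higher, Fabp1 by 2.39 and Fabp2 by 2.13, and 2 were lower, among them Epcam at -1.45, with a list mean per array of 6.45 to 7.81 in mϕ and 6.31 to 7.75 on DC arrays. Epcam is also on the study's list for CD103+CD11b+ DCs. Of 10 B and plasma cell genes 1 was higher, Cd79b by 1.67, and of 10 T and NK cell genes 1 was higher, Cd3g by 1.37. Their part in the receptors that differed in mϕ was not tested.

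The 4 DC subsets form a square of CD103 by CD11b, so the CD11b difference could be compared between CD103+ and CD103- DCs. It was larger in the positive direction among CD103+ DCs for 3 receptors, Gpr141, Gpr183 and Gpr55 (3.19% of the set, where 1.08% of all genes passed in this direction), and in the negative direction for 3, Gpr171, Gpr31b and Gpr33 (3.19%, where 0.893% of all genes passed). Gpr183 was higher by 1.31 in CD11b+ than in CD11b- cells among CD103+ DCs and by 0.10 among CD103- DCs, where the arrays read 9.25, 8.91 and 9.10 without CD11b, and the interaction was 1.22 ± 0.18 (adjusted p = 8.9e-04). For Gpr33 the corresponding differences were -4.40 and -1.48, with an interaction of -2.92 ± 0.43 (adjusted p = 7.4e-04). These 2 passed whichever single array was left out.

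For Gpr55 the CD11b difference was 1.07 among CD103+ and -0.17 among CD103- DCs, an interaction of 1.23 ± 0.24 (adjusted p = 0.00664). Gpr31b gave -1.02 and 0.11, an interaction of -1.13 ± 0.22 (adjusted p = 0.00557). Gpr141 gave 2.33 and 0.95, an interaction of 1.39 ± 0.28 (adjusted p = 0.0079). Gpr171 gave -1.99 and -0.74, an interaction of -1.26 ± 0.25 (adjusted p = 0.00685). These 4 lay near the threshold, and the arrays they rested on are named with the closer look at these results. Lineage markers passed in the interaction as well. Of 11 cDC1 genes, 5 passed in the negative direction and 0 in the positive. Of 9 cDC2 genes, 5 passed in the positive direction and 0 in the negative. Their median interactions were -1.49 and 1.74, against 0.004 over all genes. The CD103-CD11b- arrays, which held higher B and plasma cell and plasmacytoid DC markers, enter all 6 receptor values. The part of these and of the cDC1 and cDC2 markers was not tested.

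**Figure D5:**
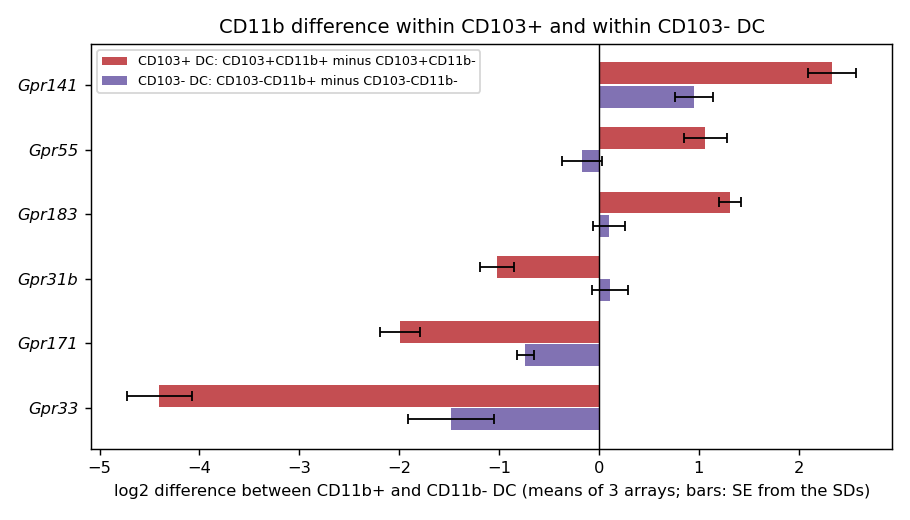
Log2 difference between CD11b+ and CD11b- DCs (horizontal axis) within CD103+ DCs (red) and within CD103- DCs (purple) for the 6 receptor genes whose interaction passed. Bars are differences between means of 3 arrays and error bars the SE from the SDs. Gpr183, Gpr55 and Gpr31b differ by 1.31, 1.07 and -1.02 among CD103+ DCs and by at most 0.17 in size among CD103- DCs.

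Some receptors with means over 6 passed nothing. Adgre5 (CD97), an adhesion receptor of leukocytes that binds CD55, had means of 10.51 in the CD103+CD11b+ subset, 10.97 in the CD103+CD11b- subset, 10.94 in the CD103-CD11b+ subset, 11.02 in CD103-CD11b- DCs and 11.25 in mϕ. In all, 11 receptors had a population mean over 6 without passing, with a median range of 0.90 between populations, which does not show that their levels were equal. Gpr18, a lipid receptor that neighbours Gpr183 in the RefSeq order, had means from 7.78 in CD103+CD11b- DCs to 8.67 in CD103-CD11b+ DCs. That difference of 0.90 (adjusted p = 1.2e-04) was short of the log2 threshold. Gpr35, a receptor of the gut for kynurenic acid among other ligands, ranged from 6.28 in mϕ to 7.23 in CD103-CD11b- DCs. Gpr137b (range 1.07, adjusted p = 0.0101) and Gpr3 (range 1.06, adjusted p = 0.0256) had ranges over 1 but missed the threshold on p in the F test.

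Genes that make the ligands of these receptors or carry their signal were read in the same way. Beside the 10.7% of all genes that passed the F test, 2 of 4 oxysterol enzymes, 2 of 12 Gα genes, 3 of 15 Gβ and Gγ genes, 3 of 5 receptor kinases and arrestins and 4 of 18 RGS genes did. The oxysterol enzymes make and break down the ligand of Gpr183. Cyp7b1, the oxysterol 7α-hydroxylase, read 6.42 to 6.84 in CD103-CD11b- DCs and was higher there than in the other 3 DC subsets by 2.08 ± 0.14 (adjusted p = 4.4e-07), and Cyp27a1, a mitochondrial sterol hydroxylase, passed the F test (range 1.46, adjusted p = 5.4e-05) and the interaction (-1.58, adjusted p = 0.0019). Ch25h, which makes 25-hydroxycholesterol, read 3.65 to 4.80 on all arrays, and its difference of 0.68 in mϕ (adjusted p = 5.0e-04) was short of the log2 threshold. Of 12 Gα genes, Gna15, a Gq-class subunit, was lower in both CD11b+ subsets than in CD103+CD11b- DCs (-1.26 and -1.13), and Gna12 was higher in mϕ (1.97). Of 15 Gβ and Gγ genes, Gnb4 (-2.15 and -2.40) and Gng12 (-1.37 and -1.17) were lower in the CD11b+ subsets than in CD103+CD11b- DCs, and Gnb4 (-1.47) and Gng10 (-1.15) were lower in mϕ than in the DC mean.

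Of 5 measured receptor kinases and arrestins, which switch receptors off, Arrb1 was lower in both CD11b+ subsets than in CD103+CD11b- DCs (-1.59 and -1.24). Arrb2 was higher in CD103+CD11b+ DCs (1.03) and in mϕ (1.01). Of 18 RGS genes, which speed the return of Gα to rest, Rgs1 (1.44) and Rgs12 (1.19) were higher in CD103+CD11b+ than in CD103+CD11b- DCs. Rgs18 was lower in CD103+CD11b+ than in CD103-CD11b+ DCs (-1.76, adjusted p = 0.00994). In mϕ Rgs3 (-1.62), Rgs12 (-1.12) and Rgs18 (-1.44) were lower than in the DC mean.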

How the data were processed

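RNA of each sorted population was amplified (NuGEN Ovation Pico) and hybridised to 1 Affymetrix Mouse Gene 1.0 ST array per sample. The authors deposited log2 values after RMA, which corrects background, normalises by quantiles and summarises the probes of a probeset. The genome build behind the deposited probeset annotation is not given in the sources used here (promoters and gene order are RefSeq's, GRCm38.p6), the number of mice behind a sample is not stated, and the number of arrays limits the precision. Of 35556 probesets, 21789 named 1 gene, 1621 more than 1, and 12146 had no entry in the annotation. For each of the 19938 genes the probeset with the highest mean was used. No gene was filtered out.

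The values were fitted with limma 3.58.1 in R 4.3.3 (lmFit, eBayes, Benjamini-Hochberg over all genes). The 3 comparisons among CD103+ and CD11b+ DC subsets used their 9 arrays and the others all 15. Calls took an adjusted p of 0.01 and a log2 difference of 1 as thresholds. Tables, promoters and plots were made in Python 3.11.15. The fits were tested on simulated data.

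The members and the gene lists were chosen with earlier results of these data known. Named with array values were up to 8 members per direction that passed without overlap, all adhesion receptors that passed, and Gpr33, Gpr141, Gpr157 and Gpr183. Gpr82 and the members over a signal of 6 that passed nothing were named after their values were seen. Alternatives were the mean of probesets, cyclic loess, a filter on dim genes, trended robust variance, array weights, a test against the log2 threshold (treat), an adjusted p of 0.05, a replicate block, all 15 arrays, single arrays left out, and the methods' t-test. Leaving out, in each population, the array with the most acinar transcripts was chosen after seeing the data.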

Additional observations from a re-analysis of the deposited data

Results flagged for a closer look

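The CD11b difference was not the same in CD103+ and CD103- DCs for 6 receptors, by the interaction term of the 15-array limma fit. It was 1.39 for Gpr141, 1.22 for Gpr183 and 1.23 for Gpr55, and -1.26 for Gpr171, -1.13 for Gpr31b and -2.92 for Gpr33. Gpr183 and Gpr33 passed with each array left out in turn. When each population lost its array with the most acinar transcripts Gpr183 and Gpr171 passed, and Gpr33 (-2.57), Gpr141 (1.45), Gpr31b (-0.97) and Gpr55 (1.11) did not.

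The other 4 depended on single arrays. Gpr141 passed without CD103+CD11b- replicate 2, CD103-CD11b- replicate 1 or mϕ replicate 2 or 3, and did not pass without any 1 of the other 11 arrays, with values of 1.26 to 1.48. Gpr171 passed without CD103+CD11b+ replicate 2, CD103+CD11b- replicate 3 or mϕ replicate 2 or 3, and did not pass without any 1 of the other 11, with values of -1.33 to -1.16. Gpr31b did not pass without CD103+CD11b+ replicate 1 or 2, any CD103+CD11b- array, CD103-CD11b+ replicate 2 or 3, or CD103-CD11b- replicate 1, with values of -1.17 to -1.01. Gpr55 did not pass without CD103+CD11b+ replicate 1 or 3, any CD103+CD11b- array, CD103-CD11b+ replicate 2 or 3, CD103-CD11b- replicate 2 or 3, or mϕ replicate 1, with values of 1.02 to 1.31.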

How the results depend on the processing

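Of 69 calls on members over the 7 tests, none changed direction under any alternative, 40 were kept under all of them and 55 whichever single array was left out. The counts of members passing in the macrophage comparison and in the F test stayed within 1.5 times of 13 and 20. The treat test of limma asks for a difference beyond the log2 threshold. It was judged at an adjusted p under 0.05, looser than for the main calls, so the counts compared here differ in p threshold. It gave 4 in place of 11 members for CD103-CD11b+ against CD103+CD11b- DCs and 1 in place of 4 between the CD11b+ subsets. For CD103-CD11b- DCs it gave 1 in place of 5, and for the interaction 0 in place of 6. Of the 49 calls outside the F test, 25 were lost under treat at this looser p. The methods name Student's t-test for pairs of groups in general and not for the arrays. Here it was used without a log2 threshold, so its counts are not like for like with those of limma. At an unadjusted p under 0.05 it gave 25 members for CD103+CD11b+ against CD103+CD11b- DCs (10 with limma). It gave 24 for CD103-CD11b+ against CD103+CD11b- DCs and 13 between the CD11b+ subsets. The share of all genes passing it was not counted. At a Benjamini-Hochberg adjusted p under 0.05 the t-test gave 11, 10 and 0. With single arrays left out, the CD11b+ subsets differed in 2 to 4 members and the interaction held for 2 to 6. When each population lost its array with the most acinar transcripts, the counts were 0 between the CD11b+ subsets, 3 for CD103-CD11b- DCs and 2 for the interaction, with 2 arrays left per population. The labels do not say whether a shared replicate number marks a shared sort. Same-numbered arrays deviated together for 18 of 30 pairs (correlation over 0.1). Their mean correlation was 0.12, against -0.06 for other pairs, and 11 of 15 arrays were closest to an array of their own number. Replicate 2 held the most acinar transcripts in every population except CD103-CD11b+ DCs, where replicate 3 did. The main fit held no replicate block, so it left this shared deviation out. With a replicate block, 5 members in place of 4 passed between the CD11b+ subsets and 22 in place of 20 in the F test, and the Gpr171 interaction was the only call lost. Cyclic loess moved no population comparison's median by over 0.1. Arrays carry no read depth, and the table gives no measure of signal over background.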
